A study of Mus musculus with 20 samples.

Results

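The G1 cyclins, their kinases and the retinoblastoma proteins were followed as 10 genes: the D cyclins Ccnd1, Ccnd2 and Ccnd3, the E cyclins Ccne1 and Ccne2, the kinases Cdk4 and Cdk6, and the retinoblastoma family Rb1, Rbl1 and Rbl2. They were chosen by gene symbol, with earlier results of these data known. They came from the 55486 genes in each of the count tables of bone marrow and kidney. All 10 had enough counts to be tested in both tissues.

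In a cell that leaves quiescence, growth signals raise the D cyclins, which bind CDK4 or CDK6 and direct them to the retinoblastoma proteins. Phosphorylated retinoblastoma proteins release the E2F transcription factors, and these raise the E cyclins, which activate CDK2 and carry the cell into S phase. Proteins such as p21, p27 and the INK4 family hold the kinases back. In bone marrow this circuit drives the steady production of blood cells, whereas most cells of the adult kidney divide rarely.

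The samples were RNA libraries from C57BL/6 mice, 10 weeks old when treatment began. The study used both sexes, the labels give none for a library, and all 20 libraries held Y-linked RNA, at 102 to 177 summed CPM in marrow and 75.5 to 120 CPM in kidney. One group received intraperitoneal oxaliplatin, a platinum drug that cross-links DNA, at 10 mg/kg in 5% dextrose for 8 weeks, and the vehicle group received 5% dextrose for 8 weeks. Each treatment was measured in bone marrow and in kidney with 5 libraries per tissue and treatment, 20 in all, each labelled as a biological replicate. Marrow was taken 6 days after treatment ended, from femur and tibia, while the collection of kidney was not described in the sources used here. The labels name no engineered allele and no sorting was described, so each value is an average over many cell types.

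Total counts ranged from 30660153 to 41140527 per library in bone marrow and from 24393007 to 30925430 in kidney. Levels are TMM-scaled CPM, read counts scaled to 1 common library total that is corrected for composition. A gene was called at an edgeR adjusted p under 0.05 with a change of more than 1.5-fold, and every adjusted p given here is the Benjamini-Hochberg value over all genes tested. Defining markers were highest in the labelled tissues. Neutrophil markers summed to between 11125 and 29296 CPM in the 10 marrow libraries and between 1.08 and 4.25 CPM in kidney. Proximal tubule markers summed to between 16867 and 26319 CPM in the 10 kidney libraries. In marrow they summed to 587 to 951 CPM with vehicle and 67.7 to 169 CPM with oxaliplatin, and the source of that RNA was not tested. In bulk RNA, fewer cells of a type and less RNA per cell cannot be told apart.

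The 3 D cyclins differ most in their response, so the start of each coding sequence is shown first, read from GENCODE transcripts (mouse release 21, GRCm38). Each stretch is the first 60 bases of the coding sequence, in the first coding exon, and the capitals mark the 5 codons of the short motif (leucine, any residue, cysteine, any residue, glutamate) by which D cyclins bind retinoblastoma proteins. The motif spans codons 5 to 9 in Ccnd1 and codons 3 to 7 in Ccnd2 and Ccnd3.
Ccnd1 (chr7:144939634-144939693, minus strand): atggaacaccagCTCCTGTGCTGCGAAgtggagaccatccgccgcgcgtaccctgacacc
Ccnd2 (chr6:127150714-127150773, minus strand): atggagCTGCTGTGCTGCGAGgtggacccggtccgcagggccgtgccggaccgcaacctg
Ccnd3 (chr17:47593655-47593714, plus strand): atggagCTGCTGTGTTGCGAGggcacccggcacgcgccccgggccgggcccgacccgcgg
Over the whole coding sequence the D cyclins were 63.2% to 67.0% identical in base sequence, Ccne1 and Ccne2 59.3%, and Cdk4 and Cdk6 63.7%. The retinoblastoma genes were 47.2% to 58.1% identical. No family pair was a near-identical copy.

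Promoters were available for 6 of the 10 genes, in RefSeq windows of GRCm38.p6 that run from 250 bases before to 50 after the start of transcription. They were searched on both strands for 4 forms of the E2F motif (TTTCCCGC, TTTCGCGC, TTTGCCGC and TTTGGCGC) and for the shorter core TCCCGC, which the first of the 4 contains. Windows of 3 genes are shown with the matches in capitals: Rbl1 and Ccne1, whose levels were lower in marrow after oxaliplatin, and Cdk6, whose level moved by less than its spread.
Rbl1 (chr2:157204485-157204784, minus strand): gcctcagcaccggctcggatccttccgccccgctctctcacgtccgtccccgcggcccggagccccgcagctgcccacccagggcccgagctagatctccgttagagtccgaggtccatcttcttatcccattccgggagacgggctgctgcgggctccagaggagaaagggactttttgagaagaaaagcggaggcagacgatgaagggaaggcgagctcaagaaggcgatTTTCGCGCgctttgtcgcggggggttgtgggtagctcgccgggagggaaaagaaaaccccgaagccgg
Ccne1 (chr7:38107441-38107740, minus strand): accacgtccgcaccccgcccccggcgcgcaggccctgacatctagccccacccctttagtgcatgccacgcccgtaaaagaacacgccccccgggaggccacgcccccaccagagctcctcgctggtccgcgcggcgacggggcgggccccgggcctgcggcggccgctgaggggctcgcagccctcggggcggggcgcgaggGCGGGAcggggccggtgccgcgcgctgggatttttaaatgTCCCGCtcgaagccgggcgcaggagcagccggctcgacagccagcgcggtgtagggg
Cdk6 (chr5:3343643-3343942, plus strand): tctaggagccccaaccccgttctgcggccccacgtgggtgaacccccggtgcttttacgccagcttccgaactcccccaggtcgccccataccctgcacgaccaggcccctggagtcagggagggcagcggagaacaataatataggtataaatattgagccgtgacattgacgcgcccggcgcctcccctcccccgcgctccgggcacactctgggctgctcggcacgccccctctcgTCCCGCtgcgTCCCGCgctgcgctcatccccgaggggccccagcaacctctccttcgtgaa
Rbl1 held TTTCGCGC with its first base 18 bases before the start, a motif found in 0.323% of the 32851 windows of that length, and any of the 4 forms stood in 2.26%. Ccne1 held the core TCCCGC at 47 bases before the start on the opposite strand and at 7 bases before it, and Cdk6 held it at 11 bases and at 1 base before the start; the core stood in 6562 of the 32851 windows. None of these letters stood in the windows of Ccnd3, Cdk4 or Rbl2, and the Cdk4 window held the E-box CACGTG, a site for MYC, at 4 positions and the Cdk6 window at 1, 220 bases before the start and left in lower case, against 7.15% of windows with at least 1. Ccnd1, Ccnd2, Ccne2 and Rb1 had no entry.

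In bone marrow 6 of the 10 genes were called, 2 higher and 4 lower after oxaliplatin, against 23.3% of the 22363 genes tested there (11.6% higher, 11.8% lower). At any fold, 7 had an adjusted p under 0.05, against 33.1%. Ccnd2 and Ccnd1 were higher, Ccne2, Ccne1, Rbl1 and Rb1 were lower, and Ccnd3 was lower by just under the 1.5-fold threshold. Cdk4, Cdk6 and Rbl2 were not called. The libraries of the 2 groups did not overlap for 6 genes (Ccnd1, Ccnd2, Ccnd3, Ccne2, Rb1 and Rbl1), against 24.9% of tested genes (11.4% higher, 13.5% lower). The median log2 fold change of the 10 genes was -0.30, against -0.038 over all tested genes.

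**Figure D1:**
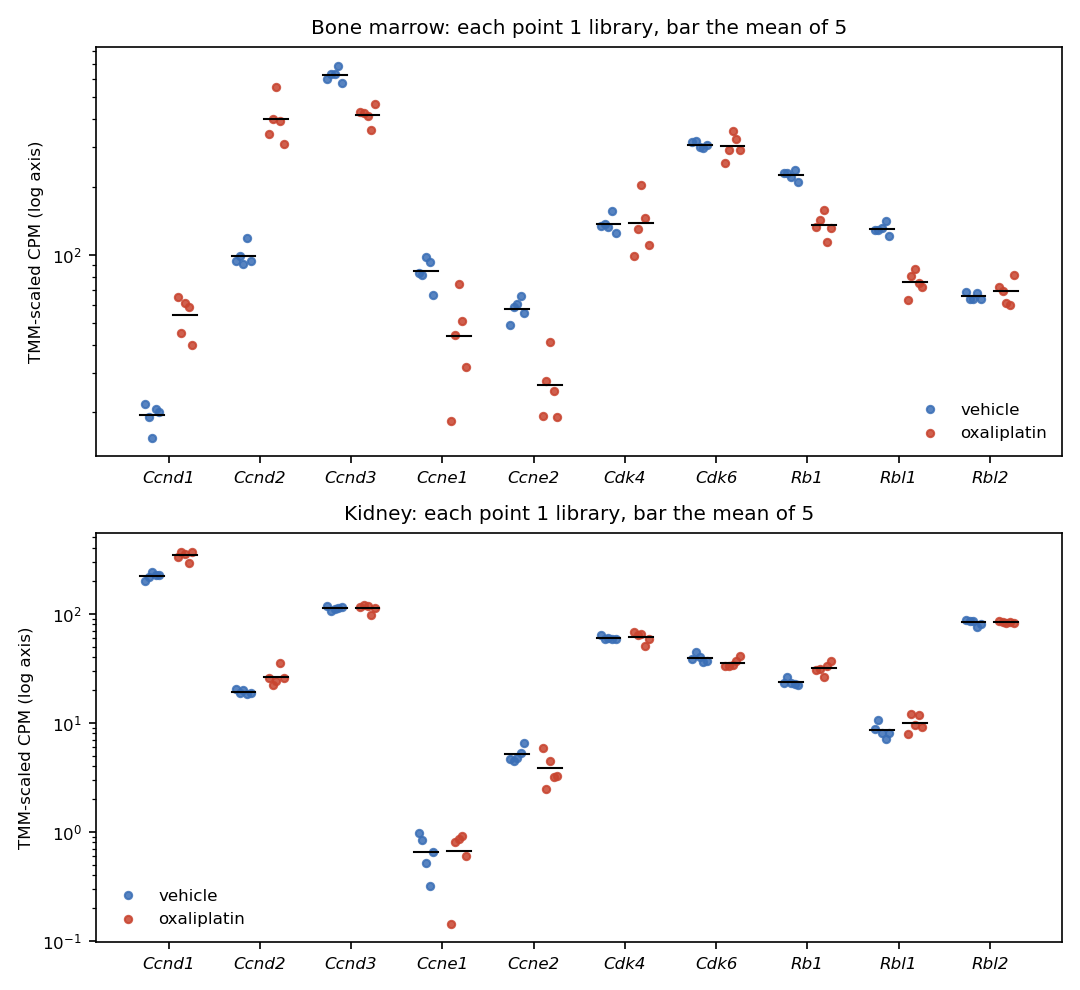
TMM-scaled CPM of the 10 genes in bone marrow (top) and kidney (bottom), on a log axis, with 1 point per library and a bar at the mean of 5 libraries per group. In marrow the oxaliplatin libraries lie above the vehicle libraries for Ccnd1 and Ccnd2 and below them for Ccnd3, Ccne2, Rb1 and Rbl1; in kidney they lie above for Ccnd1, Ccnd2 and Rb1.

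Ccnd2 (ENSMUSG00000000184, chromosome 6 from 127125162 to 127152193) encodes cyclin D2, a D cyclin with a known role in blood-forming cells. The vehicle libraries of marrow held 93.3, 98.8, 90.9, 118.6 and 93.6 CPM, and the oxaliplatin libraries 342, 398, 555, 393 and 311 CPM. The lowest oxaliplatin library was above the highest vehicle library. The mean went from 99.1 ± 11.3 to 399.8 ± 94.2 CPM (SD, n = 5), a 4.04-fold rise (log2 fold change 2.01, standard error, SE, 0.15, edgeR adjusted p = 9.1e-07). By p value Ccnd2 stood at rank 163 of the 22363 genes.

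Ccnd1 (ENSMUSG00000070348, chromosome 7 from 144929931 to 144939925) encodes cyclin D1, the D cyclin of most epithelial and mesenchymal cells. Its levels in marrow were 21.9, 19.1, 15.4, 20.8 and 20.1 CPM with vehicle and 64.8, 44.9, 61.3, 58.7 and 39.8 CPM with oxaliplatin. Here too every oxaliplatin library was above every vehicle library. The mean rose 2.77-fold from 19.5 ± 2.47 to 53.9 ± 10.9 CPM (SD, n = 5; log2 fold change 1.47, SE 0.15, edgeR adjusted p = 8.4e-06).

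Ccnd3 (ENSMUSG00000034165, chromosome 17 from 47505051 to 47599691) encodes cyclin D3, which has known roles in lymphocyte and red cell precursors. It held the highest CPM of the 10 genes in vehicle-treated marrow, at 603, 632, 631, 688 and 576 CPM, and 429, 423, 412, 357 and 467 CPM after oxaliplatin. All oxaliplatin libraries were below all vehicle libraries. The mean went from 626 ± 41.8 to 417 ± 39.7 CPM (SD, n = 5; log2 fold change -0.58, SE 0.099, edgeR adjusted p = 5.3e-04), a 1.4998-fold difference that fell just short of the 1.5-fold threshold. Of the alternative settings, 8 put it past that threshold, with log2 fold changes down to -0.69, among them leaving out vehicle library 1 or 5 or oxaliplatin library 1, 2 or 5. A pseudogene named Ccnd3-ps had 182 to 294 counts in vehicle and 142 to 231 in oxaliplatin libraries, against 13483 or more for Ccnd3.

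Levels of the D cyclins were summed per kilobase of exon, so that genes of unequal length can be added. The sums overlapped between the groups, at 79.9 to 95.5 CPM per kb with vehicle and 94.7 to 118.9 with oxaliplatin. Vehicle library 4 alone made the overlap, at 95.5 against 94.9 and 94.7 in oxaliplatin libraries 4 and 5. The mean sum went from 86.0 ± 5.84 to 101.5 ± 10.0 CPM per kb (SD, n = 5). With the longest annotated transcript as the length, the mean sums were 183.1 and 185.8. The proportions of the 3 D cyclins did not overlap. Ccnd3 made up 83.0% ± 1.08 of the D cyclin sum with vehicle and 47.2% ± 6.44 with oxaliplatin (SD, n = 5). Ccnd2 went from 12.2% ± 0.675 to 41.5% ± 5.91, and Ccnd1 from 4.82% ± 0.677 to 11.3% ± 2.18. In the oxaliplatin library with the largest share of Ccnd2, replicate 3, that share was 49.6%, and in the one with the smallest, replicate 5, it was 34.9%. These shares were described without a test. With the longest annotated transcript as the length, the Ccnd3 share was 88.6% with vehicle and 58.4% with oxaliplatin, again without overlap.

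**Figure D2:**
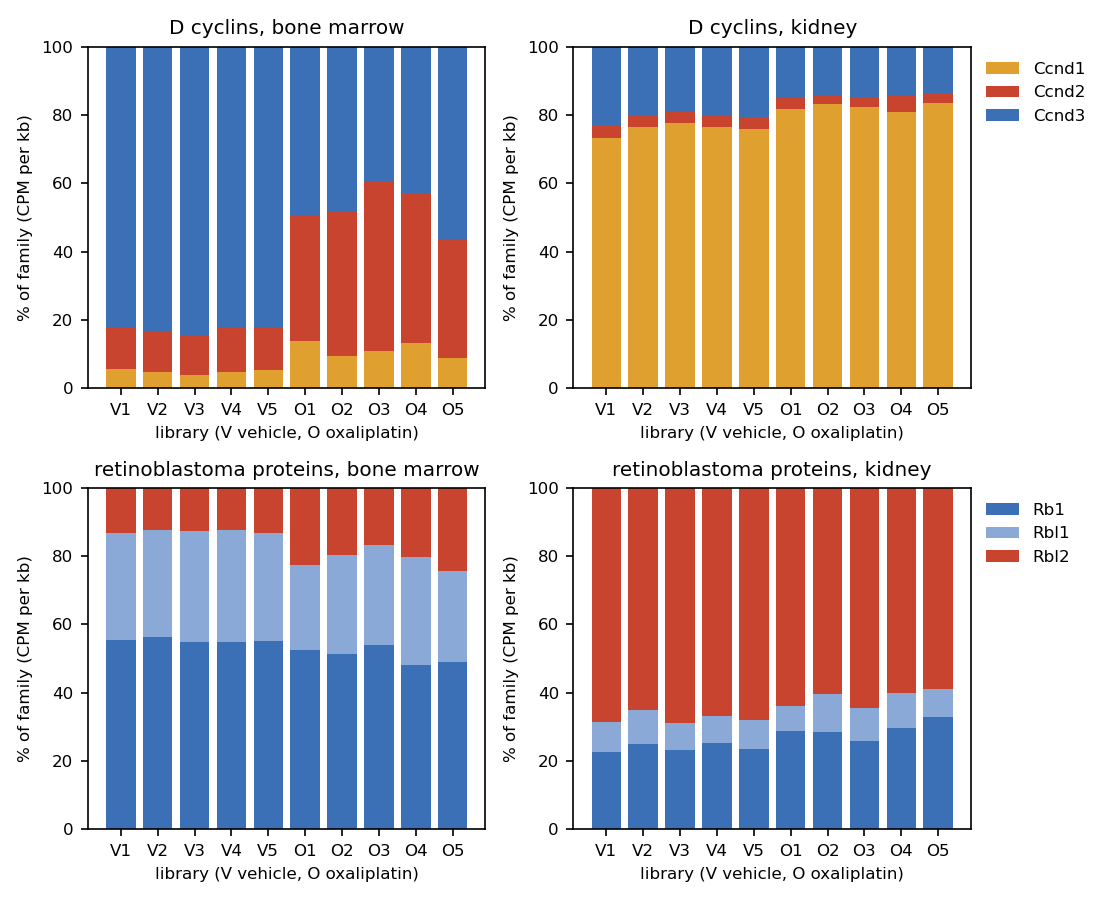
Share of each gene in its family, as a percentage of the family's summed CPM per kilobase of exon, in each library (V vehicle, O oxaliplatin) of bone marrow (left) and kidney (right), for the D cyclins (top) and the retinoblastoma family (bottom). In marrow the Ccnd3 share falls from between 82.2% and 84.7% to between 39.4% and 56.2%; in kidney Ccnd1 takes at least 73.3% in every library.

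The E cyclins were lower in marrow. Ccne2 (ENSMUSG00000028212, chromosome 4 from 11191351 to 11204779) encodes cyclin E2, an activator of CDK2. It was measured at 48.6, 58.9, 60.5, 65.8 and 54.9 CPM with vehicle and at 19.2, 27.5, 40.9, 25.01 and 19.1 CPM with oxaliplatin, without overlap. The mean fell 2.19-fold from 57.8 ± 6.42 to 26.3 ± 8.92 CPM (SD, n = 5; log2 fold change -1.13, SE 0.19, edgeR adjusted p = 4.8e-04).

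Ccne1 (ENSMUSG00000002068, chromosome 7 from 38097984 to 38107534) encodes cyclin E1. Its libraries held 83.4, 81.3, 97.3, 93.2 and 66.6 CPM with vehicle and 18.3, 44.1, 74.3, 50.7 and 31.7 CPM with oxaliplatin. The groups overlapped, because oxaliplatin library 3 was above vehicle library 5. The mean went from 84.4 ± 12.0 to 43.8 ± 21.0 CPM (SD, n = 5; log2 fold change -0.94, SE 0.29, edgeR adjusted p = 0.028), the highest adjusted p of the 6 calls. The call was lost without vehicle library 3 (adjusted p = 0.0591) or 4 (0.0561), without oxaliplatin library 2 (0.0519) or 5 (0.0791), with library size alone (0.0540), with no filter beyond 1 count (0.104), and with Y-linked RNA as a covariate (0.133), with edgeR in each case. Over all alternatives the adjusted p ran from 0.0061 to 0.133. Together the E cyclins summed to 40.7 to 53.9 CPM per kb with vehicle and 12.4 to 39.6 with oxaliplatin, and Ccne1 kept about the same share, 65.6% ± 3.05 against 67.0% ± 6.65 (SD, n = 5).

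The kinases were not called. Cdk4 (ENSMUSG00000006728, chromosome 10 from 127063534 to 127067920), the kinase partner of D cyclins in most tissues, spanned 124.5 to 156 CPM in the vehicle group (median 133) and 98.3 to 204 CPM in the oxaliplatin group (median 130.1), with a log2 fold change of 0.0075 (SE 0.17, edgeR adjusted p = 0.979). Oxaliplatin library 3 was the high one, and without it the log2 fold change was -0.18. Cdk6 (ENSMUSG00000040274, chromosome 5 from 3341485 to 3531008), the partner prominent in blood cells, ranged from 297 to 319 CPM (median 306) and from 255 to 353 CPM (median 292), with a log2 fold change of -0.018 (SE 0.097, edgeR adjusted p = 0.909). The spread widened with treatment in both, from a coefficient of variation of 8.58% to 29.9% for Cdk4 and from 2.97% to 12.2% for Cdk6. Per kilobase, Cdk4 made up 65.6% ± 2.19 of the sum of both kinases with vehicle and 65.4% ± 3.76 with oxaliplatin (SD, n = 5).

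Rb1 (ENSMUSG00000022105, chromosome 14 from 73183673 to 73325822) encodes the retinoblastoma protein itself, which holds the activating E2F factors. In marrow its levels were 229, 231, 222, 237 and 211 CPM with vehicle and 133, 143, 158, 114 and 131 CPM with oxaliplatin, without overlap. The mean went from 226 ± 10.1 to 136 ± 16.4 CPM (SD, n = 5), a 1.66-fold fall (log2 fold change -0.73, SE 0.095, edgeR adjusted p = 6.7e-05). Lpar6, which lies within Rb1 on the other strand and shares 408 bases of exon with it, was also lower (log2 fold change -0.65, edgeR adjusted p = 0.0158), whereas Rcbtb2, which shares 488 bases, had a log2 fold change of 0.55.

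Rbl1 (ENSMUSG00000027641, chromosome 2 from 157145893 to 157204534) encodes p107, a family member found mainly in dividing cells and itself a known E2F target. Its vehicle libraries held 129, 128, 131, 141 and 121 CPM, and its oxaliplatin libraries 62.9, 80.4, 86.4, 75.2 and 71.6 CPM. The groups stood apart, with means of 130.1 ± 7.30 and 75.3 ± 8.91 CPM (SD, n = 5), a 1.73-fold fall (log2 fold change -0.79, SE 0.094, edgeR adjusted p = 3.4e-05).

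Rbl2 (ENSMUSG00000031666, chromosome 8 from 91070057 to 91123844) encodes p130, the family member that predominates in resting cells. It was measured at 68.0, 63.7, 63.9, 67.6 and 63.6 CPM with vehicle and at 72.2, 68.9, 61.2, 59.9 and 81.3 CPM with oxaliplatin. The groups overlapped, with a log2 fold change of 0.072 (SE 0.093, edgeR adjusted p = 0.599). Within the family, per kilobase, Rbl2 went from 12.7% ± 0.391 to 20.6% ± 2.92 and Rb1 from 55.3% ± 0.583 to 50.9% ± 2.43 (SD, n = 5), both without overlap. The family sum was lower, at 63.7 to 72.0 CPM per kb with vehicle and 39.4 to 48.8 with oxaliplatin.

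One oxaliplatin library of marrow, replicate 3, held the highest level of its group in 7 of the 10 genes (Ccnd2, Ccne1, Ccne2, Cdk4, Cdk6, Rb1 and Rbl1). It also had the highest summed levels of S-phase genes (3473 CPM) and mitosis genes (3294 CPM) in its group, the lowest of neutrophil markers (11125 CPM) and the highest of skeletal muscle markers (779 CPM). Without it the count of called genes was again 6 of 10, 2 higher and 4 lower. Among vehicle libraries, replicate 4 was highest in 6 of the 10 genes and replicate 5 lowest in 6.

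The makeup of the marrow moved with treatment. For comparison, 11.6% of all genes tested in marrow were called higher and 11.8% lower. Erythroid markers were lower, 11 of 12 called, with summed levels of 31135 to 54428 CPM with vehicle and 4079 to 10600 CPM with oxaliplatin. B lineage markers were lower in 10 of 12, from between 425 and 739 CPM to between 128 and 211 CPM. Higher were 7 of 7 adipocyte markers (103 to 175 CPM against 526 to 2520 CPM) and 6 of 6 megakaryocyte markers (1073 to 1668 CPM against 1985 to 3034 CPM). Of the skeletal muscle markers 5 of 6 were higher, with overlapping sums of 9.75 to 103 CPM and 43.6 to 779 CPM, and none of the 12 neutrophil markers was called. Monocyte and macrophage markers were higher in 5 of 11 and lower in 1, with overlapping sums of 1698 to 2146 CPM and 1749 to 3618 CPM. Stem and progenitor markers were higher in 3 of 8 and lower in none, with overlapping sums of 179 to 212 CPM and 168 to 208 CPM. Of the T cell markers 1 of 8 was called, lower, while their sums did not overlap (93.7 to 131 CPM against 48.8 to 76.4 CPM). No marker on these lists was at 0 in all marrow libraries. The part of these shifts in the levels of the 10 genes was not tested.

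In kidney 1 of the 10 genes was called, Ccnd1, against 11.5% of the 19293 genes tested there, 7.68% called higher and 3.81% lower. Ccnd2 and Rb1 also had an adjusted p under 0.05 but rose by less than 1.5-fold, which makes 3 of 10 at any fold, a share close to the 29.4% of all tested genes. The same 3 genes were the ones whose libraries did not overlap, all higher, against 20.7% of tested genes and 9.69% on that side. The median log2 fold change of the 10 genes was 0.020, against 0.025 over all tested genes.

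Ccnd1 was the leading D cyclin of kidney. Its libraries held 201, 217, 241, 227 and 228 CPM with vehicle and 333, 371, 352, 295 and 370.5 CPM with oxaliplatin. All oxaliplatin libraries were above all vehicle libraries, and the mean rose 1.54-fold from 223 ± 15.1 to 344 ± 31.9 CPM (SD, n = 5; log2 fold change 0.63, SE 0.076, edgeR adjusted p = 2.0e-05). Per kilobase Ccnd1 made up 76.1% ± 1.65 of the D cyclin sum with vehicle and 82.4% ± 1.03 with oxaliplatin, Ccnd3 went from 20.6% ± 1.41 to 14.4% ± 0.571 (SD, n = 5), and neither overlapped. The sum itself did not overlap in kidney, at 58.1 to 66.0 CPM per kb with vehicle and 77.3 to 94.8 with oxaliplatin. Whether the sum responded differently in the tissues was not tested.

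Ccnd2 stood at 20.6, 18.8, 19.8, 18.2 and 18.7 CPM with vehicle and at 25.7, 22.1, 23.9, 35.2 and 25.7 CPM with oxaliplatin in kidney. The groups did not overlap, and oxaliplatin library 4 was apart from the others. The log2 fold change was 0.46 (SE 0.11, edgeR adjusted p = 0.0034), and with library size alone it was 0.60 and past the 1.5-fold threshold. Ccnd3 ranged from 105.9 to 117 CPM (median 112) and from 96.3 to 119.6 CPM (median 114), with a log2 fold change of -0.0054 (SE 0.067, edgeR adjusted p = 0.962).

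Rb1 in kidney was measured at 23.0, 26.3, 23.0, 22.9 and 22.4 CPM with vehicle and at 30.4, 31.3, 26.4, 33.1 and 36.6 CPM with oxaliplatin. The groups stood apart by a narrow margin, since the highest vehicle library had 26.3 CPM and the lowest oxaliplatin library 26.4 CPM. The log2 fold change was 0.43 (SE 0.087, edgeR adjusted p = 0.0015). Rbl1, at 7.04 to 10.7 CPM (median 8.08) and 7.82 to 12.1 CPM (median 9.60), had a log2 fold change of 0.24 (SE 0.14, edgeR adjusted p = 0.214). Rbl2 was at 76.3 to 87.2 CPM (median 86.4) and 82.4 to 85.3 CPM (median 83.3), with a log2 fold change of 0.0016 (SE 0.059, edgeR adjusted p = 0.988). As a share of the family per kilobase, Rb1 went from 23.9% ± 1.10 to 29.1% ± 2.50 and Rbl2 from 67.5% ± 1.52 to 61.6% ± 2.52 (SD, n = 5), both without overlap.

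The E cyclins were scarce in kidney. Ccne1 had between 4 and 26 counts per library, or 0.322 to 0.970 CPM with vehicle and 0.144 to 0.912 CPM with oxaliplatin, and a change could not be resolved at this depth (log2 fold change 0.0065, SE 0.41, edgeR adjusted p = 0.993). Ccne2 had 4.67, 4.42, 4.71, 5.27 and 6.56 CPM with vehicle and 5.81, 2.49, 4.49, 3.16 and 3.24 CPM with oxaliplatin. These overlapped (log2 fold change -0.42, SE 0.20, edgeR adjusted p = 0.131), and without oxaliplatin library 1 the gene was called lower (log2 fold change -0.61, adjusted p = 0.0226). Cdk4 ranged from 58.2 to 64.4 CPM (median 58.9) and from 50.8 to 68.3 CPM (median 63.6), with a log2 fold change of 0.034 (SE 0.076, edgeR adjusted p = 0.773). Cdk6 ranged from 35.9 to 44.4 CPM (median 38.4) and from 33.2 to 40.6 CPM (median 34.0), with a log2 fold change of -0.14 (SE 0.078, edgeR adjusted p = 0.200).

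The makeup of the kidney libraries moved with treatment too. For comparison, 7.68% of all genes tested in kidney were called higher and 3.81% lower. Proximal tubule markers summed to 22224 to 26319 CPM with vehicle and to 16867 to 20597 CPM with oxaliplatin, 2 of 7 called lower. Podocyte markers were higher in 3 of 4 (284 to 291 CPM against 419 to 507 CPM), stromal markers in 4 of 6 tested (670 to 728 CPM against 1004 to 1128 CPM) and adipocyte markers in 5 of 6 tested (22.1 to 43.2 CPM against 62.7 to 180.3 CPM). Endothelial markers were higher in 3 of 6 (226 to 244 CPM against 278 to 404 CPM). Monocyte and macrophage markers were lower in 5 of 11 and higher in 1, from between 120.6 and 154 CPM to between 74.6 and 90.9 CPM. Their part in the levels of Ccnd1, Ccnd2 and Rb1 was not tested.

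**Figure D3:**
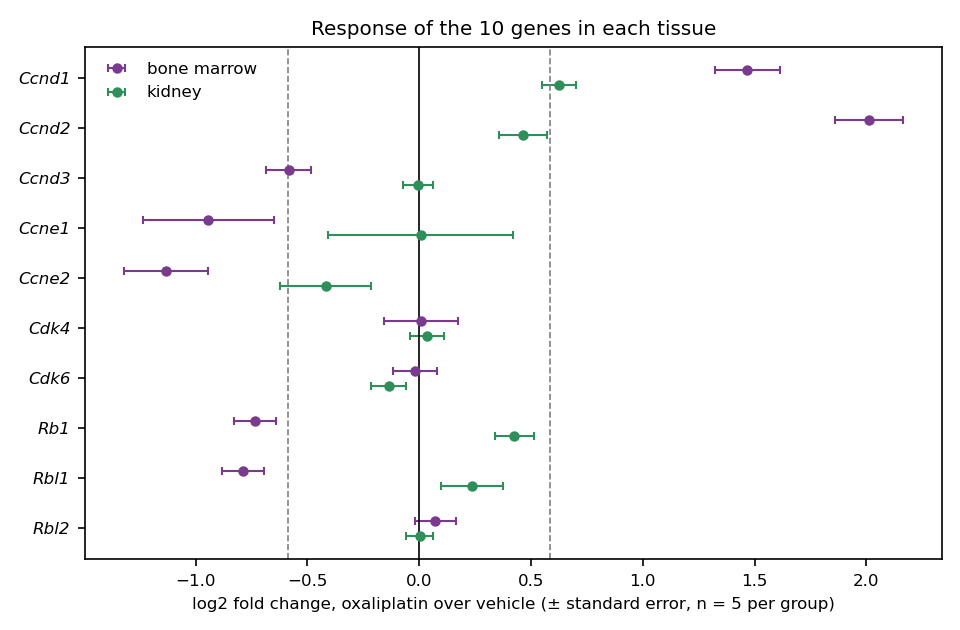
Log2 fold change of oxaliplatin over vehicle for each gene in bone marrow and kidney, with bars of 1 standard error (n = 5 libraries per group) and dashed lines at 1.5-fold either way. Rb1 lies at -0.73 in marrow and at 0.43 in kidney, while Cdk4 and Rbl2 lie near 0 in both.

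Whether the response differed between the tissues was tested as the interaction of tissue and treatment over all 20 libraries, where 4 of the 10 genes were called, 2 higher and 2 lower, against 23.7% of 24321 genes, 12.8% higher and 10.8% lower. At any fold, 5 of the 10 had an adjusted p under 0.05, against 30.1%. Ccnd2 rose more in marrow than in kidney, by 1.62 on the log2 scale (SE 0.20, edgeR adjusted p = 2.4e-06), and Ccnd1 by 0.90 (SE 0.18, edgeR adjusted p = 4.4e-04). Rb1 had the opposite sign in each tissue, with a difference of -1.10 (SE 0.13, edgeR adjusted p = 1.6e-06), and Rbl1 a difference of -0.96 (SE 0.18, edgeR adjusted p = 2.4e-04). For Ccnd3 the difference of -0.52 (SE 0.11, edgeR adjusted p = 0.0011) was below 1.5-fold, and past it with at least 10 counts in every library (-0.63, edgeR adjusted p = 6.4e-05) and with the Y-linked covariate (-0.59, edgeR adjusted p = 2.2e-04).

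For the E cyclins the test did not separate the tissues. The difference was -0.86 for Ccne1 (SE 0.57, edgeR adjusted p = 0.273) and -0.64 for Ccne2 (SE 0.30, edgeR adjusted p = 0.119), and Ccne2 was called without marrow oxaliplatin library 3 (-0.89, adjusted p = 0.0105) and with at least 10 counts in every library (-0.76, adjusted p = 0.036). Ccne1 was called with the replicate block (-0.89, adjusted p = 0.0498). The differences of Cdk4, Cdk6 and Rbl2 were 0.045, 0.18 and 0.12, with edgeR adjusted p from 0.329 to 0.910. The sources used here do not say whether the same mice gave both tissues.

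With vehicle alone, all 10 genes differed between the tissues, 8 higher in marrow and 2 higher in kidney, in a comparison where 72.9% of 24321 genes were called, 38.3% higher and 34.6% lower in marrow, and 80.7% passed at any fold. In libraries scaled together, Ccnd1 stood 15.4-fold higher in kidney (256 against 16.6 CPM; log2 difference, marrow minus kidney, -3.94, SE 0.14, edgeR adjusted p = 1.4e-17) and Rbl2 1.72-fold higher (96.1 against 55.8 CPM; log2 difference -0.78, SE 0.071). Ccne1 stood 93.5-fold higher in marrow (71.9 against 0.759 CPM; log2 difference 6.55, SE 0.40, edgeR adjusted p = 2.0e-12). The others were higher in marrow by 1.69-fold (Cdk4) to 11.3-fold (Rbl1). The Rbl2 difference fell below 1.5-fold with library size alone (log2 difference -0.36) and with a filter of 10 counts in every library (-0.55), and that of Cdk4 with the Y-linked covariate (0.54). RNA extraction also differed between the tissues, which cannot be told apart from tissue.

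The order of the genes by level per kilobase was unlike in the 2 tissues. In vehicle-treated marrow it ran Ccnd3, Cdk4, Rb1, Ccne1, Cdk6, Rbl1, Ccne2, Ccnd2, Rbl2 and Ccnd1, from 71.3 ± 4.76 down to 4.14 ± 0.525 CPM per kb (SD, n = 5). The ranges of Cdk4 and Rb1, of Rb1 and Ccne1, and of Cdk6 and Rbl1 overlapped. In oxaliplatin-treated marrow Ccnd2 stood beside Cdk4 after Ccnd3, at 42.5 ± 10.0 against 42.4 ± 12.7 CPM per kb, up from 10.5 ± 1.20 with vehicle. Ccnd2 ranked at place 2 by exon union but at place 3, behind Cdk4, by the longest transcript. Ccne2 was last at 7.54 ± 2.55, and all neighbours overlapped except Cdk4 with Rb1. In vehicle-treated kidney the order ran Ccnd1, Cdk4, Ccnd3, Rbl2, Rb1, Cdk6, Ccnd2, Ccne2, Rbl1 and Ccne1, from 47.3 ± 3.20 to 0.248 ± 0.0963 CPM per kb, where Ccne2 and Rbl1 alone overlapped. After oxaliplatin Ccnd1 was again first in kidney, at 73.1 ± 6.77 CPM per kb.

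The regulators of these kinases were followed as lists. Of 7 genes for CDK inhibitors, 4 were called higher and 2 lower in marrow (median log2 fold change 1.86, against -0.038 over all genes). Over all genes tested in marrow, 11.6% were called higher and 11.8% lower. Cdkn1a, which encodes p21, went from between 6.08 and 7.18 CPM to between 79.2 and 153 CPM (log2 fold change 4.37, edgeR adjusted p = 1.3e-08). In kidney it went from between 1.71 and 4.78 to between 79.3 and 149 CPM (log2 fold change 5.25, edgeR adjusted p = 7.2e-06). It was the only one of 6 tested to be called there, against 11.5% of all genes tested in kidney.

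The other inhibitors moved in both directions in marrow. Cdkn1b, which encodes p27, fell by 0.91 on the log2 scale from 138 to 73.7 CPM (edgeR adjusted p = 7.5e-04), and Cdkn2c, which encodes p18, by 1.26 from 127.5 to 53.2 CPM (edgeR adjusted p = 5.2e-06). Cdkn2d, which encodes p19, had a log2 fold change of -0.41, below 1.5-fold. Cdkn2a and Cdkn2b, genes of the INK4 locus, rose to low levels, from 0.158 to 1.71 and from 0.304 to 2.44 CPM. Cdkn1c, which encodes p57 and was named after its value was seen, rose from 4.22 to 15.4 CPM (log2 fold change 1.86, edgeR adjusted p = 4.9e-04). In kidney the log2 fold changes of Cdkn1b, Cdkn2c and Cdkn2d were 0.12, 0.010 and 0.30, none called.

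Downstream of the retinoblastoma proteins, 5 of 10 genes for E2F and DP factors were lower in marrow and none higher (median log2 fold change -0.57), against 11.8% of all tested genes called lower. Tfdp2, a dimer partner of E2F factors, fell from 424 to 70.7 CPM (log2 fold change -2.58, edgeR adjusted p = 1.9e-08) and E2f2, an activating E2F, from 667 to 203 CPM (-1.72, edgeR adjusted p = 3.3e-07). The repressor E2f8 (-1.10), the activator E2f1 (-0.81) and E2f4 (-0.84), the usual partner of p107 and p130, were lower too. In kidney 1 of 9 was called, close to the 11.5% of all tested genes. It was E2f7, named after its value was seen, which rose from 0.395 to 1.22 CPM.

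Among the genes for CDK2 and its activators, 2 of 6 tested were lower in marrow, against 11.8% of all tested genes. They were Cdk2 itself (log2 fold change -0.64, edgeR adjusted p = 5.9e-05) and Ccna2, the cyclin A of S phase (-0.94, edgeR adjusted p = 0.0011). In kidney Ccna2 was called higher (log2 fold change 0.97) at a low level, from 1.35 to 2.64 CPM, with overlapping groups. The MuvB core joins p107 and p130 in the repressor complex of resting cells. In marrow 1 of its 5 genes was called lower (median log2 fold change -0.46), against 11.8% of all tested genes. It was Lin9 (-0.80), and Lin54 at -0.58 was just under 1.5-fold. Among 7 genes for degradation of G1 cyclins, 1 was called higher and none lower (median -0.13). That share is close to the 11.6% of all genes tested in marrow that were called higher. It was Fbxo4 (log2 fold change 0.78). Skp2, which marks p27 and cyclin E for destruction, had a log2 fold change of -0.49, below 1.5-fold. No gene of these last 2 lists was called in kidney, where 11.5% of all tested genes were.

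Genes that E2F factors switch on for S phase were lower in marrow in 14 of 18 cases and higher in none (median log2 fold change -0.83). Over all genes tested there, 11.8% were called lower. The summed levels of the list overlapped, at 3354 to 4490 CPM with vehicle and 1492 to 3473 CPM with oxaliplatin. Cdc6, a replication licensing factor, fell by 1.60 on the log2 scale, and Tk1, thymidine kinase, by 1.19. Pola1, a subunit of DNA polymerase alpha, fell by 0.92 and Tyms, thymidylate synthase, by 0.83. These were the genes of smallest p on the list, and their groups did not overlap. The called genes Mcm2, Mcm4, Mcm5, Pcna, Rrm1 and Rpa2 had overlapping groups. Mitosis genes were lower in 11 of 14, against the same 11.8% (median log2 fold change -0.87), including Mki67 (-1.53) and Cenpf (-1.36). In kidney 3 of 18 S-phase genes were higher (median 0.26) and 9 of 12 tested mitosis genes (median 1.12, against 7.68% of all tested genes called higher). Mki67, the proliferation marker Ki-67, went from 3.22 to 10.0 CPM there. The mitosis list was at low levels in kidney, with sums of 11.5 to 18.1 CPM with vehicle and 27.4 to 44.7 CPM with oxaliplatin. Aurkb and Bub1b were called there with overlapping groups. Whether the lists as such responded differently in the tissues was not tested.

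**Figure D4:**
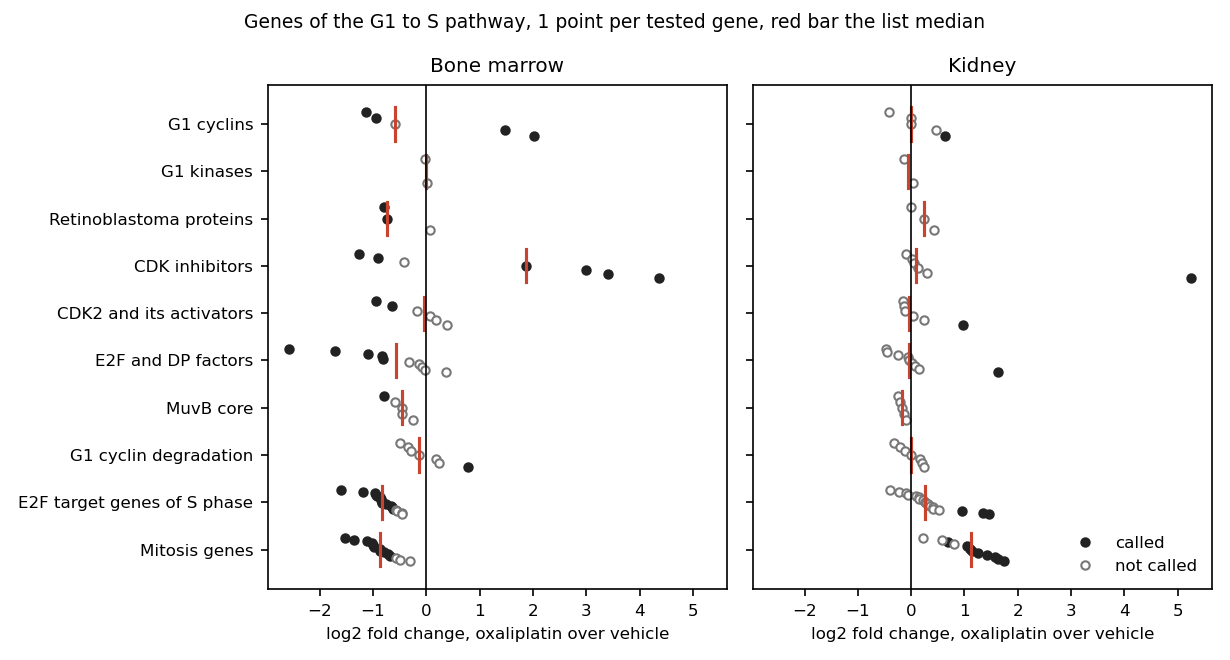
Log2 fold change of oxaliplatin over vehicle for the 10 genes (top 3 rows) and each tested gene of 7 lists of the same pathway, in bone marrow and kidney, with called genes filled and the median of each list as a red bar. Medians of the S-phase and mitosis lists lie at -0.83 and -0.87 in marrow and at 0.26 and 1.12 in kidney.

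For each gene called in marrow, the 2 genes whose log2 CPM followed it most closely over the 20 libraries are given as a description. The measure is the root mean square difference after each gene was centred on its mean over both tissues. It therefore counts the difference between tissues as well as the response to treatment. Nearest to Ccnd2 were Lgalsl (0.336) and Peg10 (0.344), and to Ccnd1 Hspa12a (0.247) and Bicc1 (0.258). Ccne2 was nearest to Blvrb (0.290) and Pnp2 (0.306), Ccne1 to Cenpe (0.469), a mitotic kinesin, and Hist1h4m (0.536), a histone gene. Rb1 was nearest to Tmpo (0.117) and Ckap5 (0.119), and Rbl1 to Dnmt1 (0.154), the maintenance DNA methyltransferase, and Cep192 (0.161).

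Of the 10 genes, 8 share exon bases with a gene on the opposite strand, among them Ccnd1 with LTO1 (1100 bases), Rbl2 with Aktip (693 bases) and Ccne2 with Ints8 (609 bases), and none with a gene on the same strand. The study's methods describe counts of uniquely aligned, unambiguous reads but not the use of strand, so how reads in the shared bases were counted is not given in the sources used here, and without strand such a pair cannot be told apart there. In marrow LTO1, Aktip and Ints8 had log2 fold changes of -0.18, 0.30 and -0.35, none called. Of these 3, Ints8 alone had an adjusted p under 0.05 (edgeR adjusted p = 0.0162), lower as Ccne2 was. It had up to 2404 counts per marrow library, against up to 2309 for Ccne2. The part of shared bases in the Ccne2 values was not tested.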

How the data were processed

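RNA-seq was carried out on bone marrow and kidney, 5 libraries per tissue and treatment. Raw counts per gene were deposited by the authors, who used STAR and Ensembl release 101 and describe counting uniquely aligned, unambiguous reads. The labels' processing notes also name bcl2fastq, Subread featureCounts and Salmon. RNA had an integrity number above 7. Library chemistry is given in 2 ways (a SMARTer kit, or removal of ribosomal RNA with random hexamers), and marrow and kidney RNA were extracted by different methods. Strand use is not given in the sources used here. In each tissue, 287 repeats of an identifier, identical in counts, were dropped, as was 1 line lacking a value. Positions came from GENCODE mouse release 21 (GRCm38), which holds 55141 of the 55486 identifiers.

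The 10 genes, the pathway and marker lists and the tests were chosen with earlier results of these data known. Within a tissue, filterByExpr (minimum count 10) and TMM scaling preceded a two-sided, robust quasi-likelihood test in edgeR 4.0.16 under R 4.3.3. The interaction and the comparison of vehicle groups used all 20 libraries. Calls required more than 1.5-fold and an adjusted p (Benjamini-Hochberg) under 0.05. All 10 genes are named; lists are given by counts and median, with up to 4 genes of smallest p in marrow plus 8 fixed regulators. Levels between genes are CPM per kb of exon union. A floor of 3 counts is 0.0729 to 0.0978 CPM in marrow and 0.0970 to 0.123 CPM in kidney, counting error only. No 2 libraries of a group agreed within counting noise (lowest chi-square per degree of freedom 7.51). Scripts were tested on simulated data.

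Alternatives were DESeq2 1.42.0, median ratio size factors, library size alone, hemoglobin genes left out, other filters, Y-linked RNA as a covariate, blocking on replicate number, other call rules, the longest transcript as length, and each library left out. Coding sequences were aligned with Biopython 1.88.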

Additional observations from a re-analysis of the deposited data

Results flagged for a closer look

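Among 40 groups of 5 libraries (10 genes, 4 groups), 3 held a library far from the other 4 by Dixon's criterion, which flags about 1 in 20 groups by chance. In vehicle-treated marrow, replicate 4 had 118.6 CPM of Ccnd2 against 90.9 to 98.8 in the others. Among the kidney libraries, oxaliplatin replicate 4 had 35.2 CPM of Ccnd2 against 22.1 to 25.7, and vehicle replicate 2 had 26.3 CPM of Rb1 against 22.4 to 23.0. Without these libraries, in turn, the genes kept their direction in the comparisons they belong to.

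The response differed between the tissues, by edgeR's interaction test at an adjusted p under 0.05, for 5 genes. The difference, marrow minus kidney, was 1.62 on the log2 scale for Ccnd2, 0.90 for Ccnd1, -0.52 for Ccnd3, -1.10 for Rb1 and -0.96 for Rbl1. Rb1 is the gene of the 10 with an adjusted p under 0.05 in both tissues and opposite signs, lower in 5 of 5 marrow libraries and higher in 5 of 5 kidney libraries than every vehicle library. The part of the shifted cell makeup of marrow in these differences was not tested.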

How the results depend on the processing

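With a 2-fold threshold, 3231 of 22363 tested genes were called in marrow, 941 of 19293 in kidney and 3529 of 24321 in the interaction. Of the 10 genes, 3, 0 and 2 were called in these comparisons. With no fold threshold, 5679 of 19293 genes (29.4%) and 3 of the 10 were called in kidney. Library size alone called 2 of the 10 in kidney and moved the share of calls that were higher from 49.6% to 63.4% in marrow and from 66.8% to 82.7% in kidney, as the median log2 change of all genes moved from -0.038 to 0.108 and from 0.025 to 0.158. With at least 10 counts in every library, fewer genes were tested, and 10089 of 14473 differed between the vehicle groups. In the main fit 17733 of 24321 did. Ccne1 had no value in kidney with that filter. Leaving out each library gave 4725 to 5727 genes and 5 to 7 of the 10 in marrow, and 1761 to 2424 and 1 to 2 in kidney. It gave 5143 to 6471 genes and 4 to 5 of the 10 in the interaction, and 17672 to 18146 and 10 in the vehicle groups. With every library kept, 23.3%, 11.5%, 23.7% and 72.9% of tested genes were called in these comparisons. Family shares without overlap numbered 9 to 10, counted over the 10 genes in both tissues. Shares of a family add up to the whole, so they are not separate results.

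Sign changes were seen for values near 0. The log2 fold change of Cdk4 in marrow was -0.0010 with at least 10 counts in every library and -0.037 with the replicate block (-0.18 to 0.13 with a library left out). For Cdk6 it was 0.026 with DESeq2, 0.026 with median ratio factors, 0.13 with library size alone, 0.016 without hemoglobin genes and 0.041 with the Y-linked covariate (-0.078 to 0.040), and for Rbl2 -0.071 with the covariate. In kidney Ccnd3 was at 0.13 with library size alone, 0.021 with at least 10 counts and 0.0016 with the covariate (-0.032 to 0.054), Ccne1 at -0.00029 with median ratio factors, -0.034 with the block and -0.088 with the covariate (-0.16 to 0.27), and Rbl2 at -0.0057 with DESeq2, -0.0056 with median ratio factors and -0.00084 with the covariate (-0.027 to 0.019). The interaction of Cdk4 was -0.0028 with library size alone, -0.074 with at least 10 counts and -0.0057 with the block (-0.17 to 0.19). The cause was not tested.

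The replicate numbers were not taken as pairs: the treated and vehicle mice differ, deviations of same-numbered libraries correlated at -0.11 to 0.195 in marrow and -0.101 to 0.057 in kidney, and own numbers were the best match in 1 of 5 pairs in each. Between marrow and kidney they correlated at -0.0504 to 0.0201 with vehicle (own number best in 1 of 5) and at -0.049 to 0.158 with oxaliplatin (best in 2 of 5, at 0.118 and 0.158), and whether the same mice gave both tissues is not given in the sources used here. With the block, 4968 of 22363 tested genes and 7 of the 10 were called in marrow (Ccnd3 added). In kidney 2017 of 19293 and 1 of the 10 were called. In the interaction 5350 of 24321 and 5 of the 10 were called (Ccne1 added), and between the vehicle groups 17485 of 24321 and 10.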
